A study of Mus musculus with 5 samples.

Results

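The counts of 10 genes of neutrophil granules and of calprotectin were followed through 5 RNA sequencing libraries of mouse Kupffer cells, which are resident macrophages of the liver. They were taken by symbol from a count table of 46983 genes, and all 10 were found: S100a8, S100a9, Elane, Mpo, Ngp, Ltf, Camp, Lcn2, Retnlg and Ly6g. The samples were ID3-/- cells (knockout, 2 libraries, replicates 2 and 3) and ID3+/- cells (heterozygous, 3 libraries, replicates 1, 2 and 3), so that no library came from a mouse with both copies of Id3. Id3 encodes a helix-loop-helix protein that holds E-protein transcription factors off DNA. The labels do not state age, sex, strain, the design of the allele or a sort for Kupffer cells, only that liver was broken up mechanically through a filter. The column names of the count table all carry the tag 3w, which no label explains. They also do not say that replicates came from separate mice, so p-values measure the spread between these libraries, which may be technical. Poly-A RNA was amplified with SMART-seq V4 before library preparation. The 10 genes were picked with their counts in the same 2 genotypes already known, so their own differences between genotypes, and whether the fit over all genes called them, are given as a description and support nothing.

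Neutrophils build their granules in stages while they mature in the bone marrow. Azurophil granule proteins such as myeloperoxidase and elastase are transcribed first, in promyelocytes. Specific granule proteins such as lactoferrin and cathelicidin follow in myelocytes under the factor C/EBP epsilon, and these transcripts are largely shut off before the cell enters blood. Calprotectin, the dimer of S100A8 and S100A9 that binds calcium, zinc and manganese, fills the cytosol of mature neutrophils and is also made by monocytes. In bulk libraries such as these, fewer cells of a type and less RNA per cell cannot be told apart.

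The regions upstream of 5 of the genes are shown because the account turns on 2 patterns: the calprotectin pair, higher in both knockout libraries, and the specific granule genes read in quantity in 1 knockout library. All 10 genes were matched in the RefSeq promoter table for build GRCm38.p6, and each line holds the 250 bases before the transcription start, read towards the gene. The windows are chr3:90668821-90669070 (plus strand) for S100a8, chr3:90695722-90695971 (minus strand) for S100a9, chr9:110419558-110419807 (plus strand) for Ngp, chr9:111019042-111019291 (plus strand) for Ltf and chr9:109849457-109849706 (minus strand) for Camp. Capitals mark matches to TTNNGNAA, a loose form of the C/EBP site, on either strand.
S100a8: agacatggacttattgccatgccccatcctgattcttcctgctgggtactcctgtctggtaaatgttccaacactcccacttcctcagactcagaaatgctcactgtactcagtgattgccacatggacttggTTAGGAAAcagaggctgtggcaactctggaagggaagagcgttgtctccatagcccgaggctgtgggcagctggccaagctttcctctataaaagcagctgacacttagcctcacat
S100a9: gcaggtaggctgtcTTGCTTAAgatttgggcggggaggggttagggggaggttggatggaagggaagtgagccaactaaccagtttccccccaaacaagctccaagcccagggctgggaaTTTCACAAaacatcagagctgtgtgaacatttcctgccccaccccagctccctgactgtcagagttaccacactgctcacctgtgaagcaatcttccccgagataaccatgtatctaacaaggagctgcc
Ngp: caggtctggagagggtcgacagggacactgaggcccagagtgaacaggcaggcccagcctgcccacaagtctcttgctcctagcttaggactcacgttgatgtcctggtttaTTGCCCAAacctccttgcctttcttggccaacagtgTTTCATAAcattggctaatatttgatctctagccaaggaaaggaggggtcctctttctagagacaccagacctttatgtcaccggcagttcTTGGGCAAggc
Ltf: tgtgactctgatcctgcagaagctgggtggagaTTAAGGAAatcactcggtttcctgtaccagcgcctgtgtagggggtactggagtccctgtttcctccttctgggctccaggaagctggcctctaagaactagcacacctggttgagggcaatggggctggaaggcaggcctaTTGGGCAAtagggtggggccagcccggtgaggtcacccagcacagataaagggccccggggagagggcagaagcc
Camp: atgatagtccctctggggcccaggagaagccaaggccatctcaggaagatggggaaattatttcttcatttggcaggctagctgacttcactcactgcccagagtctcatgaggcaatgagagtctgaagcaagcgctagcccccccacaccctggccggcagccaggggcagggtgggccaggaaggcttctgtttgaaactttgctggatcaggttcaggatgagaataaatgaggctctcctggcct
The Ngp window held 3 such matches, those of S100a9 and Ltf held 2 each, that of S100a8 held 1 and that of Camp none. Counted over all 10 genes, 7 windows held at least 1 match, against 36.9% of the 32841 promoter windows in the table. The E-box CANNTG, the element that E proteins bind, was found in 6 of the 10 windows (66.2% of all windows), with 3 matches in S100a8, 1 each in S100a9, Ltf and Camp, and none in Ngp. The letters AGGAAGT, a form of the PU.1 site, occurred in 4 of the 10 (7.69% of all windows), of the 5 shown only in S100a8. No match of 1 motif overlapped a match of another in these 10 windows. A match describes the letters only. The motifs were chosen after these promoters were read, so the shares over all windows are no test of the 10 genes.

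The libraries held 75.8M to 77.3M counts in genes in the knockout and 74.8M to 80.9M in the heterozygous cells, so that 1 read was worth 0.0122 to 0.0137 CPM (counts scaled to a common library size with TMM factors). Id3 itself had 76 and 110 counts in the knockout and 17479 to 18813 in the heterozygous libraries, which matches the labels. The summed level of 8 Kupffer cell markers, Clec4f, Vsig4 and Cd5l among them, was 59470 and 52920 CPM in knockout replicates 2 and 3 and 51490 to 55980 CPM in the heterozygous libraries. Knockout replicate 2 stood apart from the other 4 libraries in several of the genes below, so results are given with and without it. The summed level of 7 hepatocyte markers was 2877 and 7069 CPM in knockout replicates 2 and 3 against 14650 to 17690 CPM in the heterozygous libraries. Its part in the values below was not tested.

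Summed over the 10 genes, the knockout libraries held more reads than any heterozygous library, and knockout replicate 2 held by far the most. There were 17214 and 3109 counts in knockout replicates 2 and 3, against 1146, 826 and 938 in heterozygous replicates 1, 2 and 3. In scaled units this was 228 and 40.1 CPM against 13.9, 10.5 and 12.9 CPM. The log2 ratio of the mean sums was 3.43, and it was 1.69 without knockout replicate 2. Of the 10 genes, 7 were highest in knockout replicate 2, while Retnlg was highest in a heterozygous library. Elane and Mpo had 16 counts or fewer in every library. In CPM, the 2 knockout libraries lay above all 3 heterozygous ones in 5 genes (S100a8, S100a9, Ngp, Lcn2 and Ly6g) and overlapped with them in the other 5. Among the 16436 genes tested, 24.6% lay above in the same sense and 26.9% below. The filter on low counts was passed by 7 genes and not by Elane, Mpo and Camp. Of the 7, edgeR's quasi-likelihood test called 5 higher (S100a8, S100a9, Ngp, Lcn2 and Ly6g), beside 6.41% of all tested genes called higher, 10% called lower and 16.4% called in all. Nothing is read from that count, as the genes were chosen on this contrast. Ly6g also passed the filter through the knockout libraries alone. DESeq2 called S100a8, S100a9 and Lcn2 and not Ngp or Ly6g. S100a8 and Lcn2 were no longer called without knockout replicate 2 or without heterozygous replicate 1 or 2, and S100a9 without heterozygous replicate 2. Of the 5 fits that left out 1 library, Ngp was called in the 1 without knockout replicate 3 and Ly6g in the 1 without heterozygous replicate 3.

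**Figure D1:**
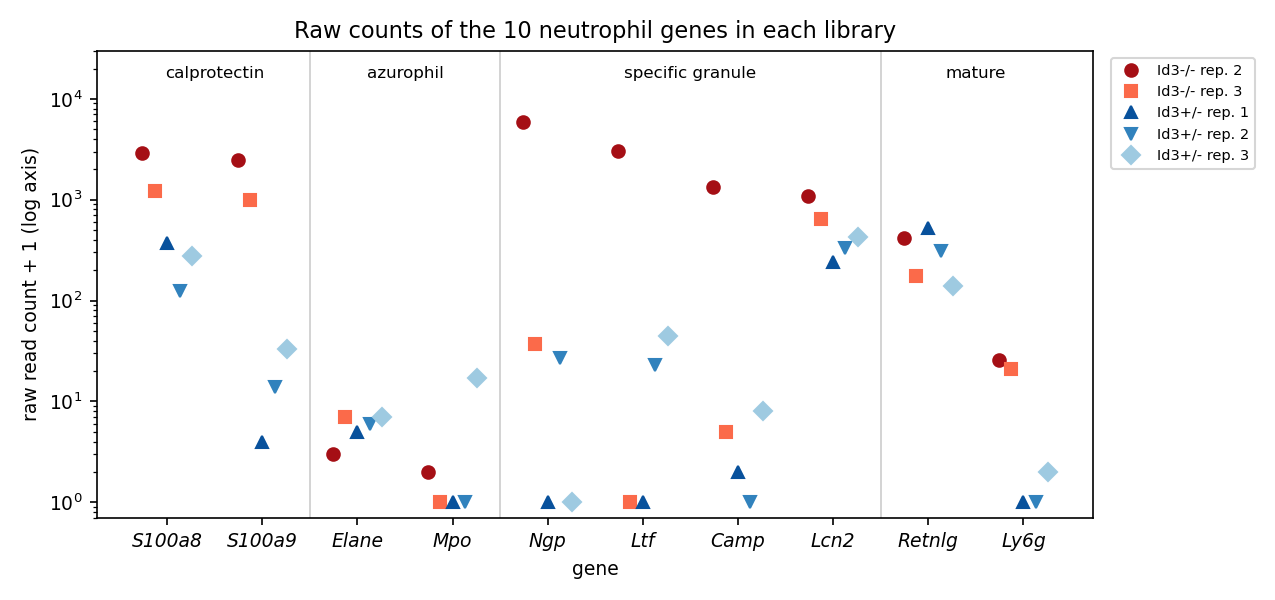
Raw read count plus 1 on a log axis for each of the 10 genes, with 1 point per library (red for Id3-/-, blue for Id3+/-). S100a8 and S100a9 are high in both knockout libraries, whereas Ngp, Ltf and Camp reach 5905, 3054 and 1330 counts in knockout replicate 2 and 44 counts at most in the other 4 libraries.

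Both calprotectin genes were higher in the 2 knockout libraries, and S100a9 differed by the larger factor. S100a8 (ENSMUSG00000056054.9) had 2915 and 1228 counts in knockout replicates 2 and 3, against 372, 123 and 273 in heterozygous replicates 1, 2 and 3. S100a9 (ENSMUSG00000056071.12) had 2471 and 992 counts, against 3, 13 and 32. In neither gene did the groups overlap, and knockout replicate 2 was the higher of its pair in both. The mean level of S100a8 was 27.3 ± 16.1 CPM in knockout cells (SD, n = 2) and 3.28 ± 1.54 CPM in heterozygous cells (SD, n = 3), a log2 fold change of 3.06 ± 0.53 (SE). That of S100a9 was 22.8 ± 14.1 and 0.214 ± 0.206 CPM, a log2 fold change of 6.76 ± 0.81. Without knockout replicate 2 the fold changes were 2.27 and 5.92. Over the 5 fits that left out 1 library, S100a8 ran between 2.27 and 3.57 and S100a9 between 5.92 and 7.82.

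In the heterozygous libraries S100a8 was read with little S100a9. S100a9 made up 45.9% (95% exact binomial interval 44.5% to 47.2%) and 44.7% (42.6% to 46.8%) of the summed calprotectin counts in knockout replicates 2 and 3. In heterozygous replicates 1, 2 and 3 its share was 0.8% (0.165% to 2.32%), 9.56% (5.19% to 15.8%) and 10.5% (7.29% to 14.5%). The knockout intervals overlapped each other and lay above all heterozygous ones. Within the heterozygous genotype, the interval of replicate 1 also lay wholly below those of replicates 2 and 3. Intervals that lie apart therefore do not by themselves mark a difference between genotypes. All these intervals cover counting error only, since the reads carry no molecular barcodes. Per kilobase of exon, the mean levels in knockout cells were 39.3 CPM for S100a8 and 43.6 CPM for S100a9. In heterozygous cells they were 4.72 and 0.409 CPM per kilobase. The genes lie 22.6 kb apart on chromosome 3, and GENCODE M21 gives neither an overlapping gene.

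**Figure D2:**
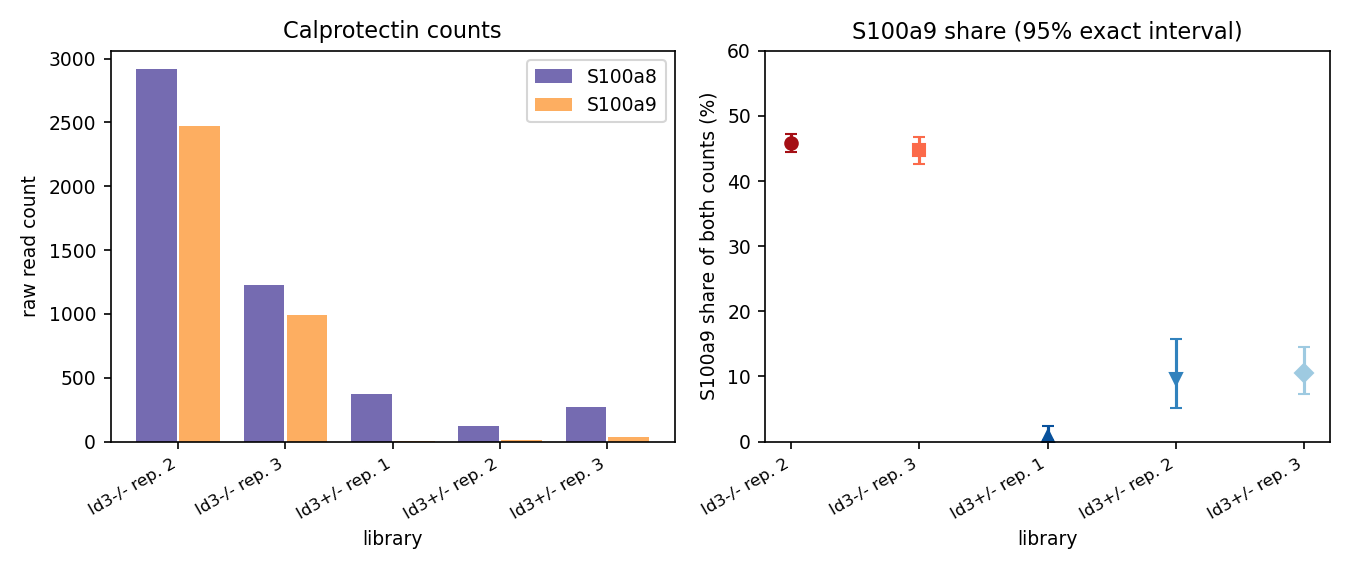
Left, raw read counts of S100a8 and S100a9 in each library; right, S100a9 as a percentage of the counts of both genes, with 95% exact binomial intervals. The share is 45.9% and 44.7% in the knockout libraries and 10.5% or less in the heterozygous ones.

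The specific granule genes Ngp, Ltf and Camp were read in quantity in 1 library of the 5. Ngp (ENSMUSG00000032484.8), a neutrophil granule protein related to the cathelicidins, had 5905 and 36 counts in knockout replicates 2 and 3, against 0, 26 and 0 in heterozygous replicates 1, 2 and 3. Ltf (ENSMUSG00000032496.7), the iron-binding lactoferrin, had 3054 and 0 counts, against 0, 22 and 44. Camp (ENSMUSG00000038357.10), the cathelicidin antimicrobial peptide, had 1330 and 4 counts, against 1, 0 and 7. Knockout replicate 3 thus lay within or next to the heterozygous range in these genes, and only knockout replicate 2 was far above it. The ratio of knockout replicate 2 to knockout replicate 3 was 168 for Ngp (95% exact counting interval 122 to 241) and 341 for Camp (133 to 1255). For Ltf, with no read in knockout replicate 3, the counting interval of that ratio began at 850. In the same 2 libraries S100a8 and S100a9 differed 2.44-fold (2.28 to 2.61) and 2.56-fold (2.38 to 2.76).

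The fitted fold changes of these genes describe that 1 library. The log2 fold change of Ngp was 8.45 ± 2.16 (SE), and 2.06 without knockout replicate 2, and its level was 39.4 ± 55.0 CPM in knockout cells (SD, n = 2) and 0.110 ± 0.190 CPM in heterozygous cells (SD, n = 3). All heterozygous reads of Ngp came from replicate 2, so that its fitted value without that library rests on a count of 0 and is no estimate. Ltf was at 20.2 ± 28.6 CPM in knockout cells and 0.294 ± 0.302 CPM in heterozygous cells, a log2 fold change of 6.12 ± 2.20 with overlapping groups, and without knockout replicate 2 its knockout count was 0. Camp was not tested, because it reached the count minimum in 1 library only. Within knockout replicate 2 the reads of Ltf were 0.517 and those of Camp 0.225 times those of Ngp.

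Lcn2 (ENSMUSG00000026822.14), the lipocalin that binds bacterial siderophores, is also stored in specific granules, and is made by hepatocytes and macrophages in inflammation as well. It had 1097 and 648 counts in knockout replicates 2 and 3, against 238, 330 and 422 in heterozygous replicates 1, 2 and 3. The groups did not overlap, and all 5 libraries held Lcn2 reads. The mean was 11.5 ± 4.37 CPM in knockout cells (SD, n = 2) and 4.29 ± 1.45 CPM in heterozygous cells (SD, n = 3), a log2 fold change of 1.42 ± 0.36 (SE), and 0.96 without knockout replicate 2. It was 1.74 times as high in knockout replicate 2 as in knockout replicate 3 (1.58 to 1.92).

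The azurophil granule genes were at the limit of detection in all libraries. Elane (ENSMUSG00000020125.6), neutrophil elastase, had 2 and 6 counts in knockout replicates 2 and 3, against 4, 5 and 6 in heterozygous replicates 1, 2 and 3. Mpo (ENSMUSG00000009350.13), myeloperoxidase, had 1 and 0 counts, against 0, 0 and 16. The only library with more than 1 read of Mpo was thus heterozygous replicate 3. The genotypes overlapped in both genes, and a library with 0 counts allows up to 3, or 0.0365 to 0.0412 CPM. For Elane the ratio of knockout to heterozygous counts was 0.816 with an exact counting interval of 0.3 to 2.05, so that a difference within that interval was not detectable at this depth. Mpo overlaps Gm11505 on the other strand, and with the strand setting not stated its few reads are uncertain.

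Ly6g and Retnlg, both known from mature mouse neutrophils, differed in pattern. Ly6g (ENSMUSG00000022582.4), the surface antigen by which mouse neutrophils are sorted, had 25 and 20 counts in knockout replicates 2 and 3, against 0, 0 and 1 in heterozygous replicates 1, 2 and 3. The groups did not overlap. The ratio of knockout replicate 2 to knockout replicate 3 was 1.28 (0.684 to 2.44), beside 2.44 for S100a8 and 2.56 for S100a9. This interval covers counting error only. The knockout to heterozygous ratio of Ly6g was 68.9 with a counting interval of 11.8 to 2780, which rests on 1 heterozygous read. Retnlg (ENSMUSG00000022651.5), a resistin-like hormone, had 414 and 175 counts, against 528, 307 and 137. The knockout values of Retnlg lay within the heterozygous range, with 3.88 ± 2.28 CPM in knockout cells (SD, n = 2) and 4.06 ± 2.28 CPM in heterozygous cells (SD, n = 3), and a log2 fold change of -0.07 ± 0.59 (SE). Ly6g belongs to a family of similar genes and Retnlg has a close paralog in Retnla. As the treatment of reads that align to several genes is not stated, both values are uncertain.

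The make-up of the summed counts differed from library to library. Calprotectin took 31.3% and 71.4% of the counts of the 10 genes in knockout replicates 2 and 3, against 32.7%, 16.5% and 32.5% in heterozygous replicates 1, 2 and 3. Ngp, Ltf and Camp together took 59.8% and 1.29%, against 0.0873%, 5.81% and 5.44%. Retnlg took 2.41% and 5.63%, against 46.1%, 37.2% and 14.6%. Each knockout library was thus led by another set, the specific granule genes in replicate 2 and calprotectin in replicate 3, and the heterozygous libraries were led by Retnlg in replicate 1 and by Lcn2 in replicates 2 and 3, with Lcn2 at 40% and 45%.

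**Figure D3:**
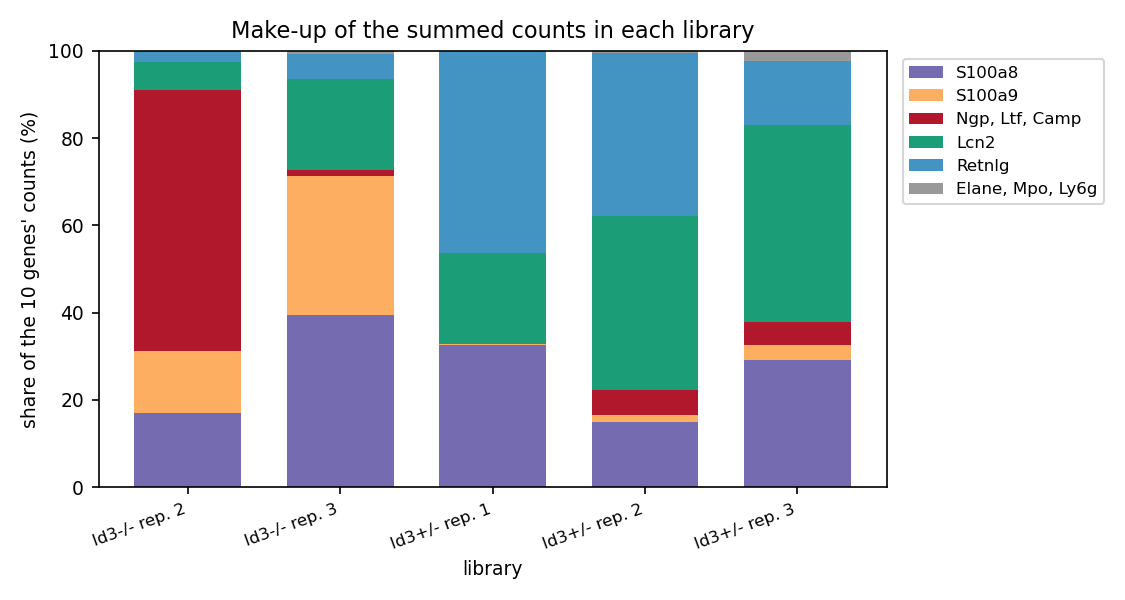
Share of the summed raw counts of the 10 genes taken by each gene or set of genes, in percent, 1 bar per library. Ngp, Ltf and Camp fill 59.8% of the bar of knockout replicate 2 and 1.29% of that of knockout replicate 3, in which calprotectin fills 71.4%.

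Other neutrophil genes, from lists that left the 10 genes out, included some that were alike in both knockout libraries and some that were high in replicate 2 alone. Cxcr2, the chemokine receptor of circulating neutrophils, had 48 and 47 counts in knockout replicates 2 and 3, against 0, 2 and 0 in heterozygous replicates 1, 2 and 3. Among 10 mature neutrophil markers, 8 were tested and 5 rose (Csf3r, Il1r2, Mmp9, Cxcr2 and Trem1), where 6.41% of all tested genes rose. The markers were listed with earlier results of these data known, so that share is no test of them. The other 3 tested, Mmp8, Hdc and Cd177, did not pass. Mmp8 had 75 and 67 counts, against 47, 186 and 22, and was highest in heterozygous replicate 2. Hdc overlapped between the genotypes, with 395 and 516 counts, against 473, 380 and 353. Of the 5 that rose, Cxcr2 and Il1r2 passed the filter on low counts through the knockout libraries alone, which favours genes that are higher there. Without these 2, 3 of 6 tested markers rose, with a median log2 fold change of 0.93 beside -0.02 over all tested genes. The markers called higher numbered 0 without knockout replicate 2 or heterozygous replicate 1 or 2, and 4 without knockout replicate 3 or heterozygous replicate 3. Their summed level was 414 and 274 CPM, against 163 to 185 CPM, most of it from Mmp9 and Csf3r, which were also plain in every heterozygous library. Stfa2l1, a stefin of mature neutrophils, had 15 and 9 counts, and none in heterozygous libraries, while Mrgpra2a had 1 and 0 counts and none in heterozygous libraries. The 6 precursor markers summed to 6.36 and 1.12 CPM, against 0.937 to 1.94 CPM. Of these, Fcnb, a ficolin of myelocytes, had 125 and 0 counts, against 1, 1 and 0, and Ms4a3, a marker of granulocyte precursors, had 13 and 0, with none in heterozygous libraries. Prtn3, the azurophil protease next to Elane, had 87 and 65 counts, against 64, 62 and 58, and Ctsg had 1 read in all. No precursor marker passed edgeR's test, 0 of the 3 tested had an unadjusted p under 0.05, DESeq2 called 0, and edgeR called 1 without knockout replicate 3. Cd177, an adhesion molecule of specific granules, had 868 and 75 counts, against 0, 33 and 19, with a log2 fold change of 4.78 ± 1.40 (SE) that did not pass (edgeR adjusted p = 0.0668).

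Eosinophil granule genes were read in the same library as Ngp. Prg2, the major basic protein of eosinophil granules, had 5586 and 4 counts in knockout replicates 2 and 3, against 6, 1 and 0 in heterozygous replicates 1, 2 and 3. Epx, eosinophil peroxidase and a paralog of Mpo, had 1009 and 1 counts, against 0, 2 and 0. Ear6, an eosinophil ribonuclease, had 250 and 2 counts, against 12, 3 and 0. Siglecf, a surface marker of mature eosinophils, overlapped between the genotypes, with 349 and 412 counts, against 336, 510 and 429, and Il5ra had none. Basophil and mast cell markers were at 0 in all 5 libraries. The summed level of 5 T and NK cell markers was also highest in knockout replicate 2, at 46.3 CPM beside 17.0 CPM in knockout replicate 3, against 9.33 to 14.1 CPM in heterozygous libraries, as was that of 5 B cell markers, at 212 and 123 CPM, against 97.2 to 142 CPM. Not every marker in these sums followed them. Trac (203 and 136 counts, against 113, 364 and 259) and Pax5 (10 and 19, against 28, 44 and 1) were highest in heterozygous replicate 2. Ncr1 (57 and 55, against 257, 55 and 5) and Ms4a1 (338 and 74, against 1121, 805 and 353) were highest in heterozygous replicate 1. The other markers of both sets were highest in knockout replicate 2. The 10 monocyte markers summed to 987 and 992 CPM, against 680 to 893 CPM, with Ly6c2 at 2613 and 755 counts, against 89, 85 and 30. The part of these cells in the values of the 10 genes was not tested.

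**Figure D4:**
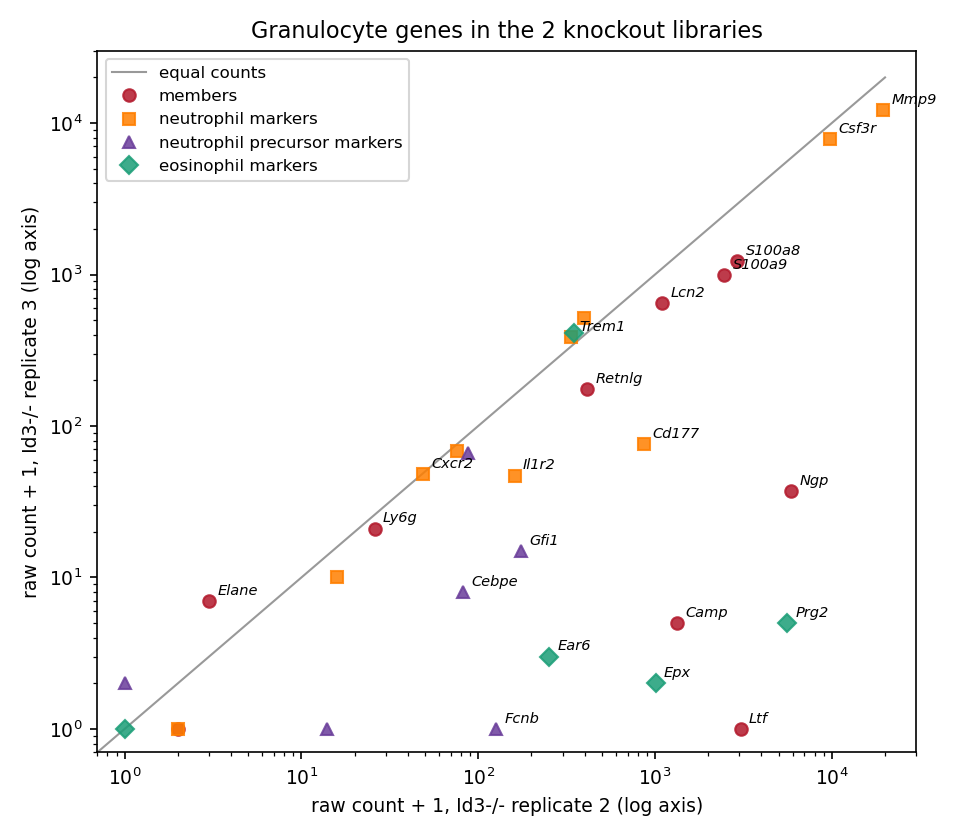
Raw count plus 1 of each of the 10 genes and of the neutrophil, neutrophil precursor and eosinophil markers in knockout replicate 2 (x axis) and knockout replicate 3 (y axis), both on log axes, with the line of equal counts. Ly6g, Cxcr2 and Trem1 lie near the line, S100a8 and S100a9 a little below it, and Ngp, Ltf, Camp, Prg2 and Epx far below it.

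The genes whose level over the 5 libraries was most like that of the calprotectin pair were sought among 11245 tested genes with a mean of at least 1 CPM. Likeness was the root mean square difference of centred log2 CPM from the summed profile of S100a8 and S100a9. Asprv1, an aspartic protease of skin and neutrophils, was nearest (0.301), with 270 and 131 counts in knockout replicates 2 and 3, against 18, 5 and 25 in heterozygous replicates 1, 2 and 3. It was followed by S1pr5, a sphingosine phosphate receptor (0.582), Ace, the angiotensin-converting enzyme (0.598), Dusp5, a MAP kinase phosphatase (0.729), and Chil1, a chitinase-like protein (0.809). S1pr5 had 389 and 123 counts, against 15, 11 and 42. For the summed profile of Ngp, Camp and Ltf the nearest tested genes lay farther off: Cd177 (1.46), Rps3a3 (1.82), Trdc (2.12), Chil3 (2.28) and Cd1d2 (2.39). The filter on low counts removes genes that reach its minimum in 1 library alone. Of the 4 genes with a symbol of their own that it removed at that mean level, the eosinophil granule genes Epx (1.40) and Prg2 (2.24) were also near. Rps3a3 is a near copy of a ribosomal protein gene and its value is uncertain. Trdc, the constant region of the T cell receptor delta chain, had 1427 and 324 counts, against 10, 99 and 22. The 5 libraries share their preparation, so these distances only describe them.

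S100a8 and S100a9 lie on chromosome 3, Ngp, Ltf and Camp on 9, Lcn2 on 2, Elane on 10, Mpo on 11, Ly6g on 15 and Retnlg on 16. The 10 genes have 18 other nearest coding neighbours, 14 of which were tested. Of these, 4 rose (Ly6c2, Retnla, Ccrl2 and Nme6), where 6.41% of all tested genes rose. Retnla passed the filter through the knockout libraries alone, and without it 3 of 13 rose, with a median log2 fold change of 0.34. Ngp is flanked by Ptpn23 and Klhl18, which had log2 fold changes of -0.09 ± 0.17 and -0.08 ± 0.12 (SE) and did not pass (edgeR adjusted p = 0.782 and 0.702). Retnla, 28.2 kb from Retnlg, had 35 and 37 counts in knockout replicates 2 and 3, against 6, 7 and 6 in heterozygous replicates 1, 2 and 3 (log2 fold change 2.51 ± 0.58, edgeR adjusted p = 0.0366), and lost the call in each of the fits without 1 library. S100a7a, 10.3 kb from S100a8, had reads only in knockout replicate 3, with 19. Nme6 kept its call only without heterozygous replicate 3, with log2 fold changes of 0.57 to 0.71 in the other fits, and Ccrl2 lost it without knockout replicate 2 or heterozygous replicate 1 or 2. Ly6c2 lost it without heterozygous replicate 2.

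The specific and gelatinase granule list without the 10 genes had 22 tested genes, of which 4 rose and 3 fell, with a median log2 fold change of 0.22. Over all tested genes 6.41% rose and 10% fell, so the share that fell was near that background. The counts of the lists below are to be read against the same shares. As this list and those below were chosen with earlier results of these data known, the shares are no test of them. Those that rose were Slpi, an elastase inhibitor, Mmp9, the gelatinase B, Chil1, and Cyba, an NADPH oxidase subunit. The 3 that fell were Orm1 and Hp, plasma proteins that hepatocytes make in quantity, and Cybb, the other subunit of the same oxidase. Of the 7 hepatocyte markers, 5 fell as well, and Ttr and Serpina1a did not pass. Ttr was at 114 and 411 CPM in knockout replicates 2 and 3, against 273 to 292 CPM in heterozygous libraries. The part of hepatocyte RNA in the values of Orm1 and Hp was not tested. Cybb had 55.1 ± 4.80 CPM in knockout cells (SD, n = 2) and 176 ± 40.5 CPM in heterozygous cells (SD, n = 3; log2 fold change -1.68 ± 0.21, edgeR adjusted p = 0.00977), and it passed in all 5 fits that left out 1 library. Cyba was at 1338 ± 23.1 CPM and 863 ± 112 CPM (0.63 ± 0.12, edgeR adjusted p = 0.0218) and Ncf4, a cytosolic subunit, at 186 ± 0.991 and 119 ± 5.89 CPM (0.64 ± 0.09, edgeR adjusted p = 0.0112). Ncf4 belongs to the NADPH oxidase and bactericidal enzyme list, where 3 of 12 tested genes rose (Cyba, Ncf4 and Nos2) and Cybb fell. Nos2 passed the filter through the knockout libraries alone, and without it 2 of 11 rose, with a median of 0.30. There the higher genes numbered 2 and 4 without knockout replicates 2 and 3, and 0, 0 and 4 without heterozygous replicates 1, 2 and 3. Lyz2, lysozyme of macrophages and neutrophils, averaged 6613 ± 704 CPM in knockout cells and 5660 ± 127 CPM in heterozygous cells (0.22 ± 0.09, edgeR adjusted p = 0.13). The count of higher genes in the specific and gelatinase granule list was 1 without knockout replicate 2, 6 without knockout replicate 3, and 1, 0 and 2 without heterozygous replicates 1, 2 and 3.

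In the azurophil granule and precursor list, edgeR called 0 of 11 tested genes higher (4 at an unadjusted p under 0.05, and 4 called higher by DESeq2) and 1 lower, with a median log2 fold change of 0.34. The 1 was Igsf6, an immunoglobulin superfamily receptor, at 30.4 ± 2.21 CPM in knockout cells (SD, n = 2) and 79.8 ± 16.7 CPM in heterozygous cells (SD, n = 3; -1.39 ± 0.20, edgeR adjusted p = 0.0122), and without knockout replicate 2 it was not called.

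Of 29 tested genes in the mature neutrophil list, 7 rose and 1 fell. Of the 7, Cxcr2, Il1r2 and Stfa2 passed the filter through the knockout libraries alone, and without them 4 of 26 rose, with a median log2 fold change of 0.27. Csf3r, the receptor of granulocyte colony-stimulating factor, was at 116 ± 20.2 CPM in knockout cells (SD, n = 2) and 67.5 ± 4.27 CPM in heterozygous cells (SD, n = 3; log2 fold change 0.78 ± 0.13, edgeR adjusted p = 0.0175). Il1r2, the decoy receptor of interleukin-1, had 160 and 46 counts in knockout replicates 2 and 3, against 5, 4 and 1 in heterozygous replicates 1, 2 and 3 (4.96 ± 0.85, edgeR adjusted p = 0.0185). Lrg1, a secreted glycoprotein of neutrophils and hepatocytes, fell to 30.5 ± 3.06 CPM in knockout cells, against 154 ± 14.6 CPM in heterozygous cells (-2.34 ± 0.13, edgeR adjusted p = 0.00196), and passed in all 5 fits that left out 1 library. Higher genes numbered 0 without knockout replicate 2 and without heterozygous replicate 1 or 2, 5 without knockout replicate 3 and 8 without heterozygous replicate 3.

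Among 7 tested S100 genes outside calprotectin, edgeR called 0 and DESeq2 called 2, both higher, and 2 had an unadjusted p under 0.05 in edgeR. S100a1, a calcium sensor best known from muscle, was at 77.0 ± 5.11 CPM in knockout cells (SD, n = 2) and 63.9 ± 10.3 CPM in heterozygous cells (SD, n = 3; log2 fold change 0.27 ± 0.15, edgeR adjusted p = 0.263). Of 15 transcription factors of granulocyte development, 3 rose, the leucine zipper factors Cebpb (1.00 ± 0.17, edgeR adjusted p = 0.0178) and Cebpd (0.60 ± 0.12, edgeR adjusted p = 0.0246) and the monocyte factor Irf8 (0.52 ± 0.13, edgeR adjusted p = 0.0405). Cebpe, the factor of specific granule genes, had 81 and 7 counts in knockout replicates 2 and 3, against 7, 71 and 14 in heterozygous replicates 1, 2 and 3, and Gfi1, a repressor needed for neutrophil formation, had 174 and 14, against 5, 19 and 0. Neither passed. Without heterozygous replicate 1 or 2 the 3 calls of this list were lost, and without knockout replicate 2 only 1 factor was called higher.

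Of 20 tested genes of neutrophil chemokines, growth factors and recruitment, 7 rose (6.41% of all tested genes did), with a median log2 fold change of 0.65. Cxcl1, a chemokine that draws neutrophils through Cxcr2, had 155 and 1047 counts in knockout replicates 2 and 3, against 6, 17 and 26 in heterozygous replicates 1, 2 and 3 (5.18 ± 0.94, edgeR adjusted p = 0.0209). The 4 with the smallest p were Ccl4, Pf4, Ccrl2 and Selp. Ccl4, a chemokine of monocytes and lymphocytes, had 877 and 1475 counts, against 188, 208 and 295 (2.36 ± 0.33, edgeR adjusted p = 0.0122). Selp, the selectin of endothelium and platelets on which neutrophils roll, had 161 and 117 counts, against 27, 26 and 29 (2.37 ± 0.41, edgeR adjusted p = 0.0184). Here the higher genes numbered 4 and 5 without knockout replicates 2 and 3, and 1, 0 and 7 without heterozygous replicates 1, 2 and 3. Of 16 tested receptors of calprotectin and granule proteins, 1 rose and 2 fell, shares near the 6.41% and 10% of all tested genes. Msr1, a scavenger receptor, fell, with 8970 and 7771 counts in knockout replicates 2 and 3, against 16292, 12842 and 14981 in heterozygous replicates 1, 2 and 3 (-0.78 ± 0.14, edgeR adjusted p = 0.0201). Tlr4, a receptor for which calprotectin is a ligand, was the other that fell, with 667 and 449 counts, against 2661, 2790 and 1291 (-1.96 ± 0.36, edgeR adjusted p = 0.0212). Bsg, another reported receptor of S100A9, rose, with 59089 and 57355 counts, against 47502, 44323 and 46130 (0.37 ± 0.09, edgeR adjusted p = 0.0405). The receptors called higher numbered 0 and 1 without knockout replicates 2 and 3, and 0, 0 and 3 without heterozygous replicates 1, 2 and 3. Those called lower numbered 1 and 0 without knockout replicates 2 and 3, and 0, 1 and 3 without heterozygous replicates 1, 2 and 3.

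Inhibitors of neutrophil elastase form another list. Of 12 tested, 4 fell and 1 rose, with a median log2 fold change of -0.79. Serpina1e, an alpha-1 antitrypsin of hepatocytes, had 325 and 896 counts in knockout replicates 2 and 3, against 6855, 9457 and 8234 in heterozygous replicates 1, 2 and 3 (-3.73 ± 0.46, edgeR adjusted p = 0.00957), and was called in all 5 fits that left out 1 library. Slpi, the secretory leukocyte inhibitor, had 511 and 1067 counts, against 38, 142 and 106 (3.05 ± 0.59, edgeR adjusted p = 0.0238), and lost its call without knockout replicate 3 or heterozygous replicate 2 or 3. The genes of this list called lower numbered 4 and 6 without knockout replicates 2 and 3, and 3, 1 and 3 without heterozygous replicates 1, 2 and 3. Serpina1 genes are near copies of each other and their single values are uncertain. In the list of lipocalins and cathelin-like genes, 7 of 13 tested genes fell and edgeR called 0 higher, with 2 higher at an unadjusted p under 0.05 and 2 called higher by DESeq2. Ambp and Kng1, which hepatocytes secrete, were among the 7, and the part of hepatocyte RNA in their values was not tested. Without heterozygous replicate 1 or 2, edgeR called 0 of the list. In the resistin and Ly6 list 2 of 15 tested genes rose, Ly6c2 and Retnla, and without Retnla 1 of 14 did, with a median log2 fold change of 0.56.

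**Figure D5:**
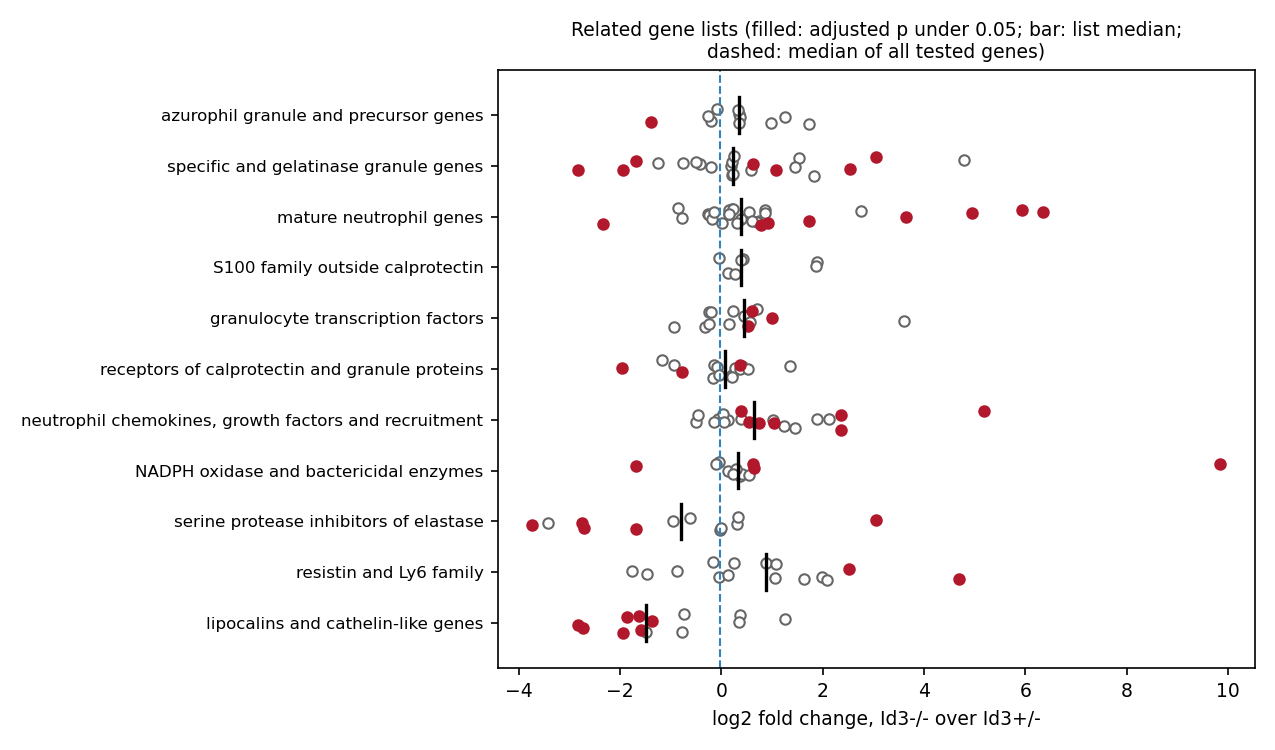
Log2 fold change of each tested gene, Id3-/- over Id3+/-, in 11 related lists that leave the 10 genes out. Filled points passed edgeR's test at an adjusted p under 0.05, black bars are list medians and the dashed line is the median of all tested genes (-0.02). The medians, over all tested genes of a list, run from -1.49 in the lipocalin and cathelin-like list to 0.88 in the resistin and Ly6 list, and the point farthest right, Nos2, has no read in any heterozygous library.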

How the data were processed

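Gene-level read counts, as deposited by the authors, cover 5 libraries (2 knockout, 3 heterozygous). Per the submitters' processing notes, HTSeq 0.5.4, DESeq 1.18.0, R 3.1.2 and the build mm9 were used, with the aligner, annotation release and strand setting not given in the sources used here. Table entries that name no gene were left out. Their share was 40% and 42.8% in knockout libraries and 47% to 48.6% in heterozygous libraries.

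The whole table was fitted with edgeR 4.0.16 in R 4.3.3 (filterByExpr, TMM, quasi-likelihood test, knockout minus heterozygous, no covariate), with Benjamini-Hochberg adjustment over 16436 genes and a threshold of 0.05. The SE of a fold change is its size over the square root of F. The procedure was tested on simulated data with known changes. With 2 against 3 samples, an exact permutation test of 1 value cannot go below p = 0.1, so sums have no test. Log2 CPM used a prior count of 2, and 0 counts a floor of 3 per library. Lengths and gene order came from GENCODE M21 (46488 of 46983 IDs matched), whose build differs from mm9. The 10 genes, lists and tests were chosen with earlier results of these data known, and motifs after the promoters were read. The genes named were the 10, Id3, in each list up to 4 passing genes by p and 2 others by level, the 5 nearest patterns and the neighbours. Others named, such as Prg2, Epx, Fcnb, Ms4a3, Stfa2l1, Cebpe and Cxcl1, were list genes chosen after their values were seen. Alternatives were DESeq2 1.42.0, limma-voom 3.58.1, other scalings and filters, a replicate block and leaving out each library. Within each genotype libraries differed by more than counting noise (chi-square over its degrees of freedom at least 32.4).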

Additional observations from a re-analysis of the deposited data

How the results depend on the processing

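The number of genes called was 2698, and 4557 with DESeq2 (2037 higher, 2520 lower). With upper-quartile scaling the split was 1443 higher and 1499 lower, against 1054 and 1644 with TMM. Leaving out 1 library at a time gave 335 to 2540 calls, with 335 without heterozygous replicate 2, 463 without heterozygous replicate 1 and 903 without knockout replicate 2. Replicate numbers 2 and 3 are shared by the genotypes, but nothing says that they pair the samples, and deviations of same-numbered libraries did not go together (correlations across genes of -0.025 and -0.062). With the replicate block 1 gene was called. The log2 ratio of the summed level of the 10 genes was 3.43, and ran from 1.69 (without knockout replicate 2) to 4.20 when 1 library was left out. Of 88 refitted fold changes of single members, 79 moved by less than the spread between replicates and 9 by more. That spread includes knockout replicate 2, so it is wide for genes high in that library alone. No member called in the main fit changed sign. Of those not called, Ltf went from 6.12 to -7.52 without knockout replicate 2, a value that rests on a knockout count of 0. Retnlg, at -0.07, ran from -0.85 to 0.44 when 1 library was left out. Of the 38 named genes from lists and neighbours that passed, 20 and 29 passed without knockout replicates 2 and 3, and 12, 7 and 32 without heterozygous replicates 1, 2 and 3. Of these, 5 passed in each of the 5 fits (Cybb, Fgb, Lrg1, Serpina1e and Tat). Depth limits Elane, Mpo and Ly6g, with 25 counts or fewer in any library. The cause of these changes was not tested.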

Other observations

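The ligands Csf3, Cxcl5 and Cxcl3, which act on neutrophils, were read in quantity only in knockout replicate 3. They were picked after their values were seen, and were not tested, since each reached the count minimum in 1 library only. Csf3, granulocyte colony-stimulating factor, had 0 and 262 counts in knockout replicates 2 and 3 and 0 in all 3 heterozygous libraries. Cxcl5, a ligand of Cxcr2, had 0 and 324 counts, against 1, 0 and 0 in heterozygous replicates 1, 2 and 3. Cxcl3, another such ligand, had 0 and 33 counts and none in heterozygous libraries. Nos2, the inducible nitric oxide synthase, had 16 and 214 counts and none in heterozygous libraries. It was called higher (edgeR adjusted p = 0.0404), but it passed the filter on low counts through the knockout libraries alone. Of the 5 fits that left out 1 library, it was called in the 1 without knockout replicate 2.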
